A study of Mus musculus with 6 samples.

Results

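The nuclear genes of respiratory complexes II to V were described here in cultured mouse aortic smooth muscle cells. They were taken as the protein-coding genes of the expression table whose symbol began with Sdha to Sdhd, Sdhaf, Uqcr, Cox followed by a digit, or Atp5, or was Cyc1. This rule gave 62 of the 54532 genes in the table, with 8 genes for complex II, 9 for complex III, 27 for complex IV and 18 for complex V. Of these, 47 encode subunits, 13 encode assembly factors, and Cox7a2l and Atp5s encode a supercomplex factor and a coupling factor.

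Per the labels, all 6 RNA-seq libraries came from wild-type (WT) vascular smooth muscle cells grown in serum-supplemented DMEM and transduced with an adenoviral vector. In 3 libraries the vector carried a control plasmid (Ad-Con), and in 3 it carried a pyruvate dehydrogenase kinase 4 overexpression plasmid (Ad-PDK4). The study's text adds that the cells were isolated from the mouse abdominal aorta and that both groups had received angiotensin II, which the labels do not mention. It also describes serum starvation of such cells for in vitro experiments, without naming the RNA-seq there. It calls the 3 samples of a group biological replicates, but the labels do not say whether they came from separate animals or cultures, so p-values measure only the spread between these samples.

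Complexes II to IV pass electrons from succinate and ubiquinol through cytochrome c to oxygen, and complex V, the ATP synthase, uses the proton gradient that complexes III and IV help to build. Complex II is encoded wholly in the nucleus, whereas complexes III, IV and V combine nuclear subunits with subunits encoded in mitochondrial DNA (mtDNA). Assembly factors insert heme, copper, flavin or iron-sulfur centres or hold subunits ready for assembly, and they are not part of the finished enzyme. Several complex IV subunits exist as a broadly expressed isoform and an isoform typical of heart and skeletal muscle, lung or testis.

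Values were FPKM, counted fragments per kilobase of gene and relative to library size, scaled between libraries by the authors. The reads recovered from them numbered 17588942 to 21861872 per library, and 1 read per kb stood for 0.0453 to 0.0571 FPKM. Differences are given as log2 fold changes of Ad-PDK4 over Ad-Con on the log2(FPKM + 0.1) scale from limma, with p-values adjusted by the Benjamini-Hochberg method over the 13423 genes that averaged 0.5 FPKM or more over the 6 libraries. A gene was called higher or lower at an adjusted p below 0.05.

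The labels were first checked on the gene they name. Pdk4, an inhibitory kinase of pyruvate dehydrogenase, had FPKM values of 9.50, 10.4 and 10.2 in the libraries labelled Ad-Con and of 7.67, 7.41 and 7.38 in those labelled Ad-PDK4. All 3 libraries labelled Ad-PDK4 were thus below all 3 labelled Ad-Con, against the direction that the label gives (log2 fold change -0.42, adjusted p = 0.0011). Whether a transcript from the vector would be counted under the mouse gene was not tested, and each direction below refers to libraries by that label only. The summed FPKM of 9 smooth muscle markers was 171.4 to 172.2 in Ad-Con and 134.0 to 144.2 in Ad-PDK4. Of the 4 tested, Acta2 (log2 fold change -1.11) and Tpm2 (-0.33) were lower, Cald1 was higher (0.36) and Smtn was not called (0.02), while Myh11 stayed at or below 0.0723 FPKM and Tagln at or below 0.555 FPKM in every library. Mylk, also under the filter, had means of 0.756 FPKM in Ad-Con and 0.123 FPKM in Ad-PDK4, Cnn1 0.466 and 0.247, and Des 0.186 and 0.0468. The groups of Mylk, Cnn1 and Des did not overlap. Myh11 had a higher mean in Ad-PDK4 (0.0456 FPKM) than in Ad-Con (0.0142 FPKM), with overlapping groups. The sum of 6 fibroblast markers, mostly Col1a1 and Fn1, was 1720 to 1892 FPKM in Ad-Con and 887 to 976 FPKM in Ad-PDK4, with 4 of them lower, Dcn higher (0.83) and Pdgfra not called (-0.05). That of 8 macrophage markers was 13.3 to 16.4 FPKM and 3.69 to 5.50 FPKM, most of it Cd68, with Ptprc, C1qa, Tyrobp and Itgam at 0. Among them only Cd68 passed the filter, and it was lower (log2 fold change -1.74). Csf1r, under the filter, went the other way, at 0.111 to 0.395 FPKM in Ad-Con and 0.565 to 0.725 FPKM in Ad-PDK4. The sum of 6 endothelial markers was 0.617 to 0.798 FPKM in Ad-Con and 0.885 to 1.18 FPKM in Ad-PDK4. Most of it was Kdr, which was not called (log2 fold change 0.68, adjusted p = 0.065). Pecam1 and Vwf had lower means in Ad-PDK4 (0.0651 and 0.0327 FPKM) than in Ad-Con (0.101 and 0.0585 FPKM), with overlapping groups. Tek and Cdh5 had higher means in Ad-PDK4, at or below 0.0523 FPKM in every library. The part of these shifts in the results below was not tested, and in bulk samples fewer cells of a type and less RNA per cell cannot be told apart.

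Of the 62 genes, 56 passed the filter on low values and were tested. In the libraries labelled Ad-PDK4, 21 of the 56 (37.5%) were lower, where 20.8% of all tested genes were lower, and 5 (8.93%) were higher, where 21.8% of all tested genes were higher. The calls were split unevenly between roles. Of 41 tested subunit genes 18 were lower and none was called higher, with Cox6b2 nearest to a higher call at an adjusted p of 0.051, whereas of 13 assembly factor genes 5 were higher and 2 were lower. The median log2 fold change was -0.17 over subunits and 0.06 over assembly factors, beside -0.003 over all tested genes. The difference between the roles was not tested. Of assembly genes outside the symbol rule, described below, 1 of 17 for complex IV (with Ndufa4), 1 of 6 for complex III and 0 of 6 for complex V were higher. Among the 5 higher members, Cox20 and Cox11 overlap other genes over 91.1% and 48.3% of their exons. The changes were small, and only Cox20 passed the 2-fold limit that the study's methods set, which 6.63% of all tested genes passed in either direction together with the call.

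**Figure D1:**
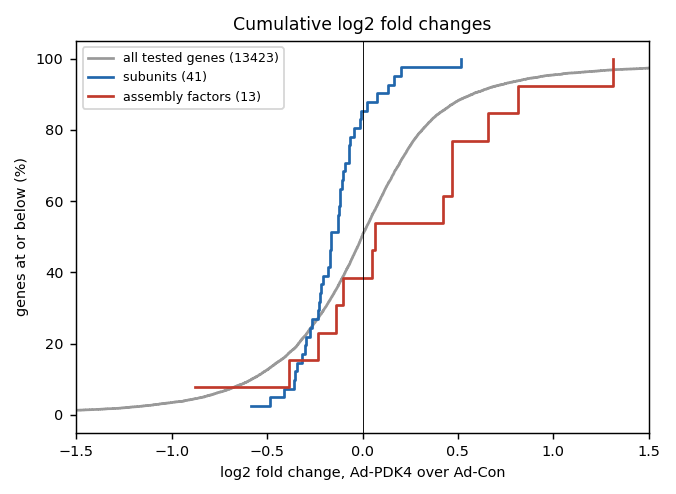
Cumulative share of genes (percent, vertical axis) at or below each log2 fold change of Ad-PDK4 over Ad-Con (horizontal axis) for all 13423 tested genes, 41 subunit genes and 13 assembly factor genes. The subunit line lies to the left of all genes from their middle upwards (median -0.17 beside -0.003), and 6 assembly factors lie above 0.4.

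The 3 libraries of one group lay wholly below those of the other for many members. In 24 of the 56 tested members all Ad-PDK4 values were below all Ad-Con values, which 26.5% of all tested genes showed, and in 8 members all were above, which 27.8% of all tested genes showed. Among the 47 members averaging 5 FPKM or more, 20 were called lower, beside 24.3% of all genes at that level, and 2 were called higher, beside 28%. The other 3 higher members, Cox10, Cox18 and Cox20, averaged less than 5 FPKM. The median log2 fold change was -0.06 in complex II, -0.09 in complex III, -0.15 in complex IV and -0.17 in complex V. Genes with symbols starting with Nduf, of complex I apart from Ndufa4, had a median of -0.10, with 14 of 45 (31.1%) lower and 4 (8.89%) higher. Beside these, 20.8% of all tested genes were lower and 21.8% higher. Ndufa4, among those 14, is counted with complex IV below.

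**Figure D2:**
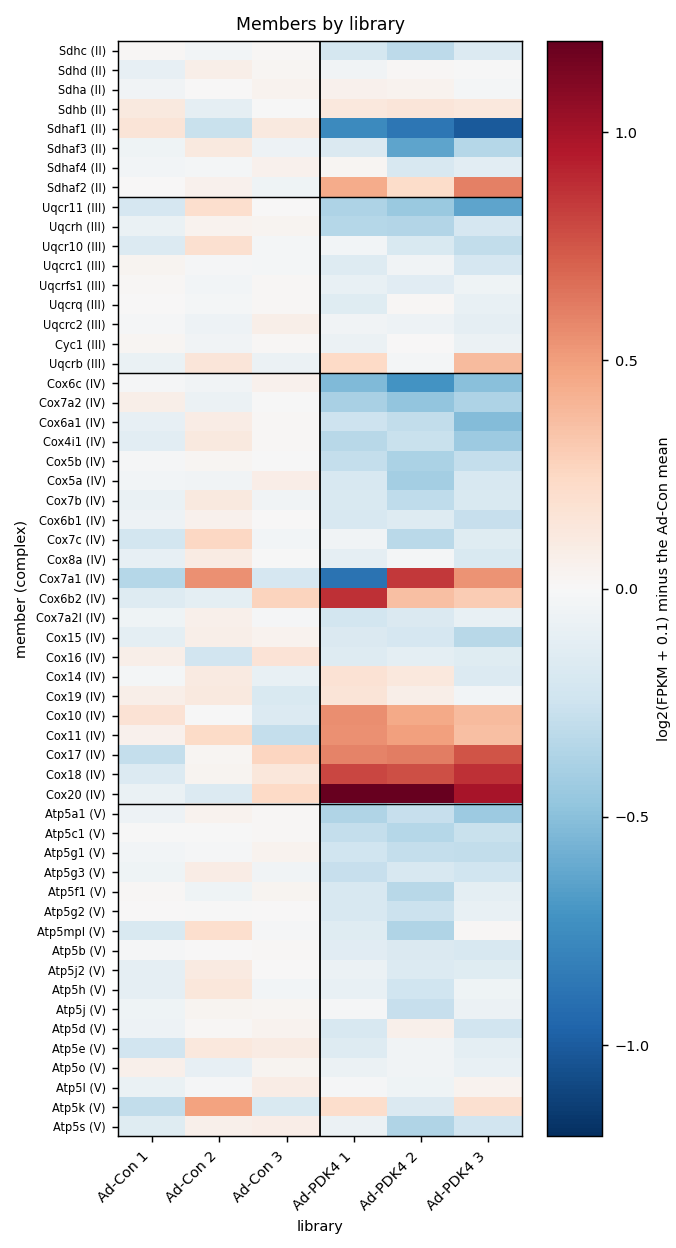
Each row is a tested member, each column a library, and the colour is log2(FPKM + 0.1) minus the mean of the 3 Ad-Con libraries for that gene. The 3 Ad-PDK4 columns are blue for most complex IV and V subunits, and red for Cox10, Cox11, Cox17, Cox18, Cox20 and Sdhaf2.

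**Figure D3:**
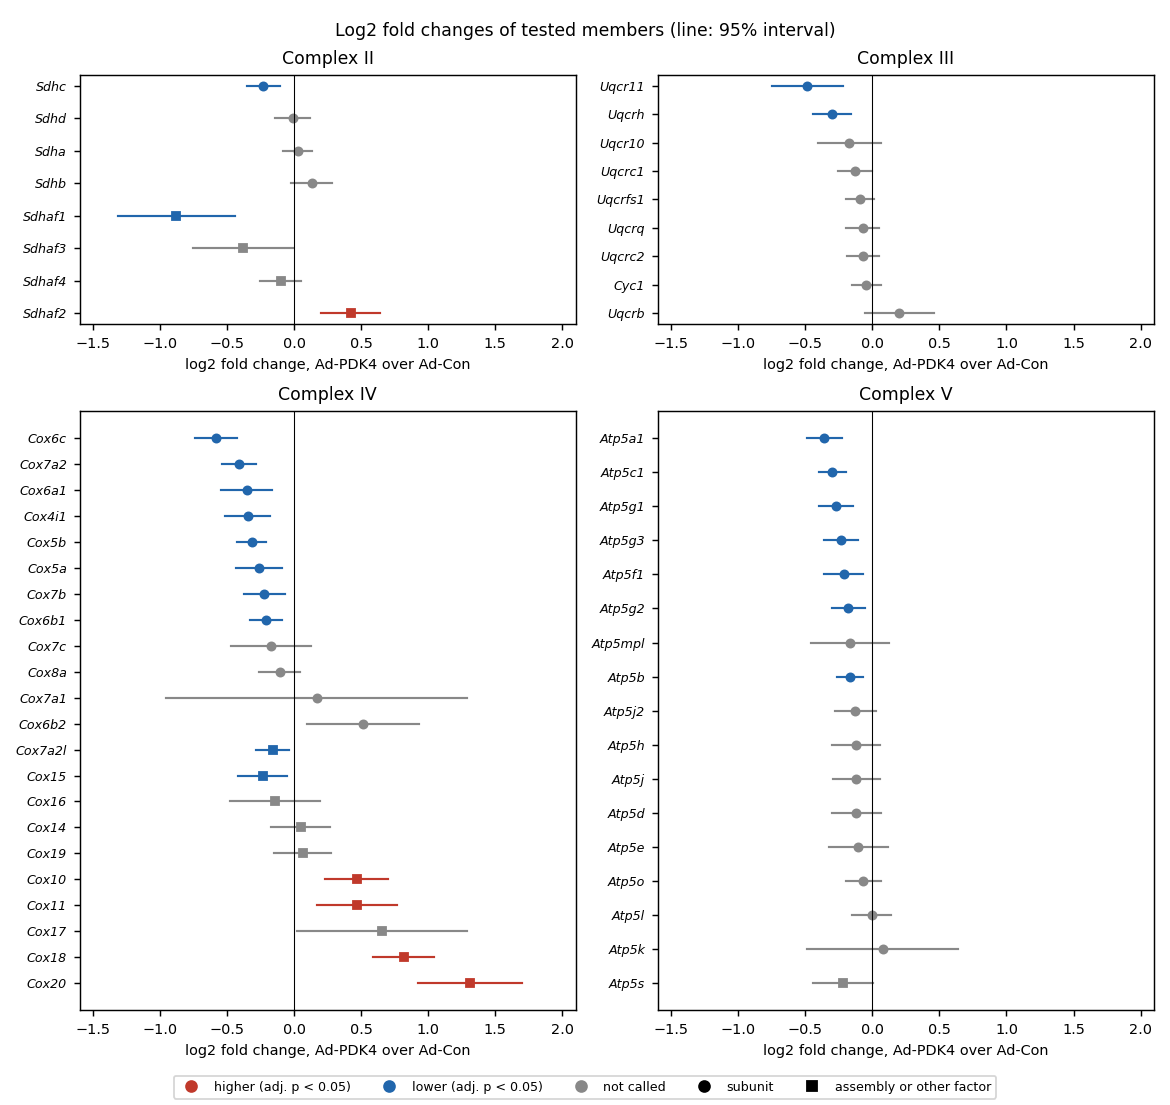
Log2 fold changes of Ad-PDK4 over Ad-Con (points) with their 95% intervals (lines) for the 56 tested members, by complex. Circles are subunits and squares other factors, with lower calls in blue, higher calls in red and the rest in grey. Lower calls are frequent among the complex IV and V subunits, and higher calls are all squares.

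The promoter windows of 5 members are shown because these members represent both directions and carry one of the motifs searched. They come from RefSeq on GRCm38.p6 and run from 250 bases before to 50 bases after the start. Capitals mark the core of the nuclear respiratory factor 1 (NRF1) motif, CGCATGCGC, and the core of the ETS family motif, CCGGAAG, each on either strand, so that the ETS core also reads CTTCCGG and overlapping matches form one longer run. Uqcr11, Cox6a1 and Atp5g2 were lower, and Sdhaf2 and Cox10 were higher.
Uqcr11 (chr10:80406772-80407071, minus strand): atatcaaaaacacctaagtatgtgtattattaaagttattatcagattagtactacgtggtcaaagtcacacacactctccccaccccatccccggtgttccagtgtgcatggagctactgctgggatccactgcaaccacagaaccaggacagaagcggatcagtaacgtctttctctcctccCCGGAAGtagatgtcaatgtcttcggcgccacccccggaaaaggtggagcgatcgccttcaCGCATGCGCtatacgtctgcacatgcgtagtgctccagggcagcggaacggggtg
Cox6a1 (chr5:115348909-115349208, minus strand): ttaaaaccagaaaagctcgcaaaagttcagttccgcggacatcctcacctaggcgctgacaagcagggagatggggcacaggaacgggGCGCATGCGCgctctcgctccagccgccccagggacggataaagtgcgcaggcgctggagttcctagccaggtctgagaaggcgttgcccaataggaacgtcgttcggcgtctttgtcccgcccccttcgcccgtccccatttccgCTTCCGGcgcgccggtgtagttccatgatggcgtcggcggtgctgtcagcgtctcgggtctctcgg
Atp5g2 (chr15:102670998-102671297, minus strand): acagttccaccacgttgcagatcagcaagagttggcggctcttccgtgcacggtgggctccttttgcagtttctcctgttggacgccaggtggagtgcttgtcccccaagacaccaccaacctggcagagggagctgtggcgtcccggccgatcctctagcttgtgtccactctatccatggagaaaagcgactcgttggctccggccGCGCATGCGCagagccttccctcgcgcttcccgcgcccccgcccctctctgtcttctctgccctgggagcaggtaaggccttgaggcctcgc
Sdhaf2 (chr19:10525160-10525459, minus strand): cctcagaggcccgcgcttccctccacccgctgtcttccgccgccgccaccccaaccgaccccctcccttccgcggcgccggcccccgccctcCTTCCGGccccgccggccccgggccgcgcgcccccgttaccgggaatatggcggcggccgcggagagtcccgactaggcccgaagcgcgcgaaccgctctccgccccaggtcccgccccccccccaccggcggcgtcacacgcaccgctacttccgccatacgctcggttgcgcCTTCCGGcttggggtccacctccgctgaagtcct
Cox10 (chr11:64079423-64079722, minus strand): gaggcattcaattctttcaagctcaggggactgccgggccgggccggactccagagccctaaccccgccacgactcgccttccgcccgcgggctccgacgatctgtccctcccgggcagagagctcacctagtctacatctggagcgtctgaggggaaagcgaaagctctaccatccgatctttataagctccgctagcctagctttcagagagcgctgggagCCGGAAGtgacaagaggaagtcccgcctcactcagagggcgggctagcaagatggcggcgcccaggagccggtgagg

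Of 45 members with a window, matched by symbol, 6 (13.3%) held the NRF1 core and 20 (44.4%) the ETS core. Over all 27025 genes with a window these shares were 1.95% and 9.93%, and over 9040 tested protein-coding genes with a window 4.38% and 20.9%. Among members called lower, 3 of 16 held the NRF1 core and 6 of 16 the ETS core. The counts were 0 of 4 and 3 of 4 among members called higher, and 3 of 23 and 11 of 23 among those not called. Lower, higher and uncalled members thus all included genes with an ETS core, and these matches are a description of the letters only.

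Complex II, succinate dehydrogenase, had 1 of 4 subunits lower, and of its 4 assembly factors 1 higher and 1 lower. Of its 8 members 25% were thus lower, near the 20.8% of all tested genes, and 12.5% were higher, beside 21.8%. Sdhc, one of the membrane anchors, had FPKM values of 35.6, 34.6 and 35.7 in Ad-Con and of 30.4, 28.5 and 31.5 in Ad-PDK4. Its groups did not overlap, and it was the only complex II subunit called (log2 fold change -0.23, adjusted p = 0.011). The flavoprotein Sdha had a log2 fold change of 0.03 (95% interval -0.08 to 0.13), the iron-sulfur subunit Sdhb 0.13 (-0.02 to 0.28) and the other anchor, Sdhd, -0.01 (-0.14 to 0.12). The summed FPKM of the 4 subunits was 199.5 ± 4.23 (SD, n = 3) in Ad-Con and 196.8 ± 0.611 (SD, n = 3) in Ad-PDK4.

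Sdhaf2, needed to attach the flavin to Sdha, had FPKM values of 14.9, 15.3 and 14.3 in Ad-Con and of 20.2, 17.3 and 22.6 in Ad-PDK4. Every Ad-PDK4 library was above every Ad-Con library (log2 fold change 0.42, adjusted p = 0.0087). Sdhaf1, which helps to insert iron-sulfur clusters into Sdhb, moved the other way. Its FPKM values of 1.5, 1.1 and 1.46 in Ad-Con stood above 0.750, 0.688 and 0.618 in Ad-PDK4, the lowest fold change among the members (log2 fold change -0.88, adjusted p = 0.007, and -0.48 with a pseudocount of 1). Sdhaf1 rested on few reads, 48 to 76 per Ad-Con library, and 69.6% of its exons overlap E130208F15Rik on the opposite strand, which is listed at 0. Sdhaf3, which acts with Sdhaf1, had a log2 fold change of -0.38 (95% interval -0.76 to -0.01, adjusted p = 0.09), called lower only by limma-voom on recovered reads (-0.40), and Sdhaf4, a chaperone of Sdha, one of -0.10 (adjusted p = 0.26).

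In complex III, the cytochrome bc1 complex, 2 of 9 subunits (22.2%) were lower, a share near the 20.8% of all tested genes. Uqcr11, a small subunit at the edge of the complex, had FPKM values of 94.8, 125.9 and 109.4 in Ad-Con and of 84.3, 80.2 and 70.4 in Ad-PDK4. The groups did not overlap, although the Ad-Con libraries spread widely (log2 fold change -0.48, adjusted p = 0.011). Uqcrh, the hinge protein beside cytochrome c1, had values of 50.6, 55.1 and 54.4 in Ad-Con and of 42.0, 41.7 and 46.3 in Ad-PDK4 (log2 fold change -0.30, adjusted p = 0.0053).

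The catalytic and core subunits of complex III were not called. The log2 fold change was -0.05 for Cyc1, cytochrome c1, -0.09 for Uqcrfs1, the Rieske iron-sulfur protein, and -0.07 for the core protein Uqcrc2. The other core protein, Uqcrc1, had non-overlapping groups and a log2 fold change of -0.13 (95% interval -0.26 to -0.004, adjusted p = 0.09), and it passed the threshold when Ad-PDK4 replicate 2 was left out (-0.18) and with quantile normalization (-0.19). Uqcr10, the most abundant complex III gene by FPKM, had a log2 fold change of -0.17 (95% interval -0.41 to 0.07). Uqcrq was at -0.07, and Uqcrb was the only complex III subunit with a value above 0 (log2 fold change 0.20, adjusted p = 0.19), and was called higher without Ad-PDK4 replicate 2 (0.31). The summed FPKM of the 9 subunits was 574.5 ± 30.8 (SD, n = 3) in Ad-Con and 508.8 ± 12.1 (SD, n = 3) in Ad-PDK4, a ratio of 0.886.

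Complex IV, cytochrome c oxidase, held 10 of the 21 lower and 4 of the 5 higher members. Beside 20.8% of all tested genes, 8 of its 12 tested subunits (66.7%) were lower. Cox6c (chr15:35925886-35938246 on GRCm38) changed most among them, with FPKM values of 34.8, 34.1 and 36.3 in Ad-Con and of 24.3, 21.3 and 24.7 in Ad-PDK4. The highest Ad-PDK4 value was far below the lowest Ad-Con value (log2 fold change -0.58, 95% interval -0.74 to -0.43, adjusted p = 3.3e-04).

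Cox7a2, the isoform of subunit 7a found outside heart and skeletal muscle, had values of 87.1, 78.9 and 82.5 FPKM in Ad-Con and of 63.0, 59.4 and 64.1 FPKM in Ad-PDK4 (log2 fold change -0.41, adjusted p = 7.4e-04). Cox6a1, the isoform of subunit 6a found outside heart and skeletal muscle, had the highest mean FPKM of all members. It stood at 412.9, 470.9 and 448.3 FPKM in Ad-Con and at 373.6, 362.0 and 308.7 FPKM in Ad-PDK4 (log2 fold change -0.35, adjusted p = 0.01). In both genes all Ad-PDK4 libraries were lower than all Ad-Con libraries.

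Cox4i1, the common isoform of subunit 4, an early nuclear partner in assembly, had 303.1, 357.9 and 333.8 FPKM in Ad-Con and 262.9, 274.5 and 244.7 FPKM in Ad-PDK4 (log2 fold change -0.35, adjusted p = 0.0062). Cox5b, the zinc-binding subunit, was tightly grouped, at 69.8, 71.6 and 70.3 FPKM in Ad-Con and at 57.8, 54.2 and 57.9 FPKM in Ad-PDK4 (log2 fold change -0.32, adjusted p = 0.0012). Cox5a was lower by a smaller margin (log2 fold change -0.26, adjusted p = 0.022), as were Cox7b (-0.22, adjusted p = 0.027) and Cox6b1, the subunit facing the intermembrane space (-0.21, adjusted p = 0.014). These 3 calls depended on single libraries and on settings. Without Ad-Con replicate 3, Cox5a (-0.22), Cox6b1 (-0.21) and Cox7b (-0.24) were not called, and Cox7b was also lost without Ad-Con replicate 2 (-0.16), Ad-PDK4 replicate 1 (-0.24) or Ad-PDK4 replicate 2 (-0.18). Cox6b1 (-0.12) and Cox7b (-0.16) were also lost with the length trend removed, Cox5a (adjusted p = 0.051) and Cox7b (adjusted p = 0.062) without trend and robust moderation, and Cox7b without a filter (adjusted p = 0.056). The number of lower complex IV subunits was then 5 without Ad-Con replicate 3, and 7 or 8 when any other library was left out.

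The 2 abundant complex IV subunits that were not called were Cox8a, the common isoform of subunit 8 (mean of 332.2 FPKM, log2 fold change -0.11, 95% interval -0.26 to 0.05), and Cox7c (-0.17, 95% interval -0.47 to 0.13). Cox7c shares 58.3% of its main transcript with pseudogenes, among them Gm12338, which averaged 51.6 FPKM. Ad-Con replicate 2 was the highest Ad-Con library in 8 of the 12 tested complex IV subunits and in 28 of all 56 tested members, beside 4702 of all 13423 tested genes and 636 of the 1541 of at most 1000 bases. Among the 19 members whose main transcript is at most 700 bases long, the median log2 difference from the Ad-Con mean was -0.10 in replicate 1, 0.10 in replicate 2 and 0.00 in replicate 3. Over those 1541 short genes it was -0.02, 0.07 and 0.00, with replicate 2 again the highest.

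Tissue-typical isoforms had few or no reads. Cox4i2, the lung isoform of subunit 4, had 0 to 3 reads per Ad-Con library, and together with Cox6a2 and Cox8b it fell below the filter. Cox7b2 and Cox8c had 0 reads in every library, which allows up to 3 reads in each. A second Atp5o entry, which is not such an isoform, also had 0 reads. Its exons overlap those of Atp5o and Donson on the same strand over 100% of their length, so its 0 sets no limit on its level. Cox4i1, Cox6a1 and Cox8a therefore supplied 99.9% to 100% of the FPKM of their families in both groups. Cox6b2, the testis isoform of subunit 6b, was at 2.35, 2.42 and 3.19 FPKM in Ad-Con and at 4.91, 3.40 and 3.27 FPKM in Ad-PDK4. These groups did not overlap but lay close, with a log2 fold change of 0.52 and an adjusted p of 0.051, and Cox6b2 passed the threshold without Ad-Con replicate 3 (0.65) or Ad-PDK4 replicate 3 (0.62), and with a pseudocount of 0.01 (0.53), TPM scaling (0.57) or the length trend removed (0.59). Its share of the Cox6b FPKM was 1.62% ± 0.275 (SD, n = 3) in Ad-Con and 2.70% ± 0.597 (SD, n = 3) in Ad-PDK4. Cox7a1, the isoform of subunit 7a typical of heart and skeletal muscle, made up 1.07% ± 0.463 and 1.74% ± 1.0 (SD, n = 3) of the Cox7a FPKM, and its groups overlapped.

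Of 9 complex IV assembly factors, 4 (44.4%) were higher, 1 (11.1%) was lower and 4 were not called. Over all tested genes 21.8% were higher and 20.8% lower. Cox20, a chaperone of the mtDNA-encoded subunit 2, had FPKM values of 1.78, 1.68 and 2.25 in Ad-Con and of 5.66, 5.18 and 3.85 in Ad-PDK4. All Ad-PDK4 libraries were above all Ad-Con libraries, and the log2 fold change was 1.31 (95% interval 0.93 to 1.70, adjusted p = 5.4e-04). Cox20 (chr1:178319130-178322693) was counted from 26 to 36 reads per Ad-Con library, and 91.1% of its exons overlap the last part of Hnrnpu on the opposite strand. Hnrnpu, an abundant nuclear RNA-binding protein, was itself higher, at 44.6 to 45.3 FPKM in Ad-Con and 54.5 to 57.9 FPKM in Ad-PDK4 (log2 fold change 0.31). Whether counting used strand is not given in the sources used here, so reads of the 2 genes cannot be told apart with certainty.

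Cox18, which inserts the tail of subunit 2 into the inner membrane, had values of 2.39, 2.75 and 2.97 FPKM in Ad-Con and of 4.77, 4.68 and 5.03 FPKM in Ad-PDK4. No other gene overlaps its exons, and the groups were well apart (log2 fold change 0.82, 95% interval 0.59 to 1.04, adjusted p = 4.0e-04). Cox10, which makes heme O, had values of 4.47, 3.94 and 3.52 FPKM in Ad-Con and of 5.88, 5.48 and 5.19 FPKM in Ad-PDK4 (log2 fold change 0.47, adjusted p = 0.0074). Cox15, which turns heme O into heme A, was lower instead, at 6.44, 7.33 and 7.20 FPKM against 6.18, 6.06 and 5.53 FPKM (log2 fold change -0.23, adjusted p = 0.044). The enzymes that make heme O and heme A thus had opposite signs. The Cox15 call was lost without any one of 5 libraries, Ad-Con replicate 2 (-0.20), Ad-Con replicate 3 (-0.21), or Ad-PDK4 replicate 1 (-0.27), 2 (-0.25) or 3 (-0.19). It was also lost without a filter (adjusted p = 0.086), with TPM scaling (-0.20) and without trend and robust moderation (adjusted p = 0.059).

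The copper-handling factors were less certain. Cox11, which delivers copper to subunit 1, had 7.04, 7.96 and 5.54 FPKM in Ad-Con and 9.96, 9.56 and 8.75 FPKM in Ad-PDK4 (log2 fold change 0.47, adjusted p = 0.02). The groups did not overlap, but the call was lost without Ad-PDK4 replicate 1 (0.43) or Ad-PDK4 replicate 2 (0.46). Exons of Cox11 overlap Tom1l1 on the opposite strand over 48.3% of their length, and Tom1l1 was lower (log2 fold change -0.37). Cox17, the copper chaperone that feeds this route, had 0.315 to 0.506 FPKM in Ad-Con and 0.666 to 0.753 FPKM in Ad-PDK4, with no overlap and an adjusted p of 0.09 (log2 fold change 0.66, 95% interval 0.02 to 1.29). Cox17 was called higher by limma-voom on recovered reads (0.80, adjusted p = 0.0089) and without trend and robust moderation (adjusted p = 0.017), and its value was 0.27 with a pseudocount of 1. Cox19 had a log2 fold change of 0.06, Cox14 of 0.05 and Cox16 of -0.14, and all 3 had overlapping groups.

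**Figure D4:**
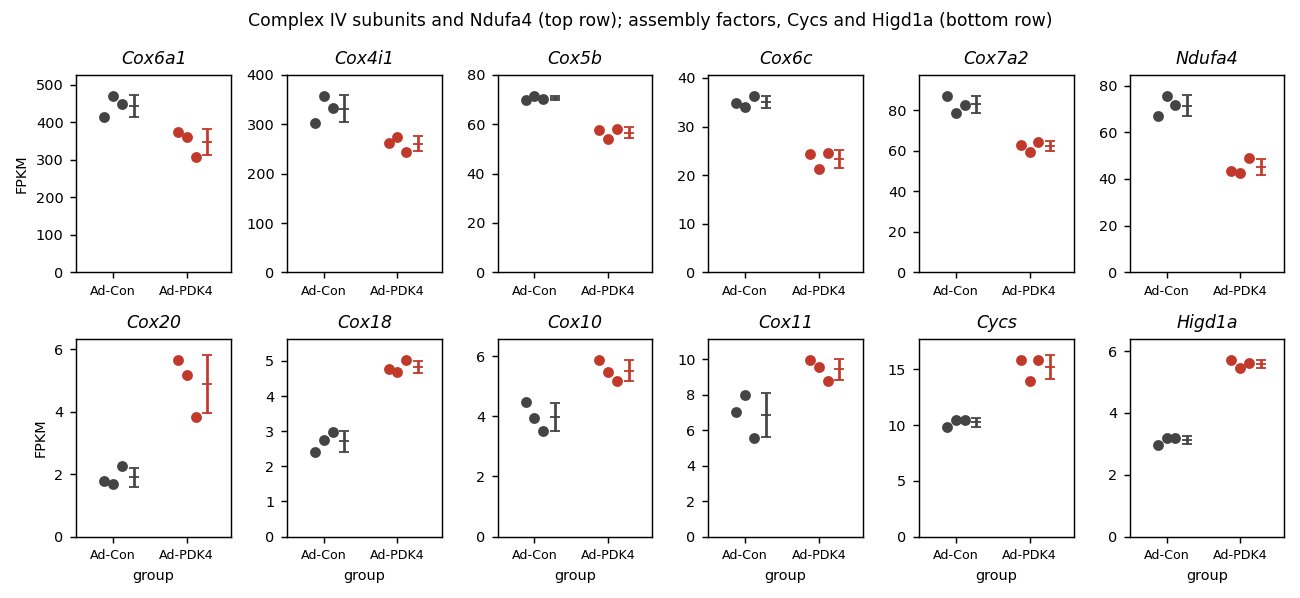
FPKM by group for 12 genes, with 1 point per library and the mean with its SD to the right of each group (n = 3). In each panel the groups are apart, with Ad-PDK4 lower for Cox6a1, Cox4i1, Cox5b, Cox6c, Cox7a2 and Ndufa4 and higher for Cox20, Cox18, Cox10, Cox11, Cycs and Higd1a.

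The summed FPKM of the complex IV subunits was 1646 ± 100.5 (SD, n = 3) in Ad-Con and 1365 ± 62.1 (SD, n = 3) in Ad-PDK4, a ratio of 0.829, the lowest of the 4 complexes. Cox7a2l, listed as a supercomplex factor, was at 206.4, 223.3 and 212.4 FPKM in Ad-Con and at 183.6, 190.0 and 200.7 FPKM in Ad-PDK4 (log2 fold change -0.16, adjusted p = 0.041). This call was lost without any one of 5 libraries, Ad-Con replicate 1 (-0.19), 2 (-0.13) or 3 (-0.17), or Ad-PDK4 replicate 1 (-0.13) or 2 (-0.16), and with TPM scaling (-0.12), quantile normalization (-0.11), the length trend removed (-0.09), no filter (adjusted p = 0.069) or no trend and robust moderation (adjusted p = 0.087).

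In complex V, 7 of 17 tested members (41.2%) were lower, beside 20.8% of all tested genes and 24.3% of those averaging 5 FPKM or more. None was called higher, beside 21.8% of all tested genes. The largest differences in complex V were in Atp5a1 and Atp5c1. Atp5a1, the alpha subunit, had 240.2, 258.0 and 251.7 FPKM in Ad-Con and 194.8, 206.3 and 184.6 FPKM in Ad-PDK4 (log2 fold change -0.36, adjusted p = 0.0015). Atp5c1, the gamma subunit of the rotor, had 96.2, 96.2 and 97.9 FPKM in Ad-Con and 79.3, 76.3 and 80.6 FPKM in Ad-PDK4 (log2 fold change -0.30, adjusted p = 0.0012). In both genes the gap between the groups was wider than the spread within them.

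Atp5b, the catalytic beta subunit and the complex V gene with the highest FPKM, changed less. It stood at 287.2, 290.7 and 294.2 FPKM in Ad-Con and at 264.4, 258.1 and 255.0 FPKM in Ad-PDK4 (log2 fold change -0.17, adjusted p = 0.014), and its call was lost without Ad-Con replicate 3 (-0.16). With quantile normalization the log2 fold change of Atp5b was -0.05 (adjusted p = 0.45). Atp5d and Atp5e, the small subunits of the central stalk, were not called (-0.12 and -0.10), but each passed the threshold when 1 library was left out, Atp5d without Ad-PDK4 replicate 2 (-0.21) and Atp5e without Ad-Con replicate 1 (-0.22).

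The 3 genes for the c ring, Atp5g1, Atp5g2 and Atp5g3, encode the same mature protein and all were lower. Atp5g1 had values of 10.8, 10.9 and 11.4 FPKM in Ad-Con and of 9.32, 9.03 and 8.93 FPKM in Ad-PDK4 (log2 fold change -0.27, adjusted p = 0.005). Atp5g3 had 73.1, 80.6 and 73.8 FPKM in Ad-Con and 62.7, 66.5 and 64.4 FPKM in Ad-PDK4 (log2 fold change -0.23, adjusted p = 0.01). Atp5g2 had 102.8, 102.7 and 102.9 FPKM in Ad-Con and 90.2, 85.8 and 96.4 FPKM in Ad-PDK4 (log2 fold change -0.18, adjusted p = 0.027). The balance of the family moved little, since Atp5g2 held 54.2% ± 1.16 of its FPKM in Ad-Con and 55.2% ± 1.84 in Ad-PDK4, Atp5g3 40.0% ± 1.32 and 39.3% ± 1.72, and Atp5g1 5.81% ± 0.217 and 5.53% ± 0.246 (SD, n = 3). The Atp5g2 call was lost without Ad-Con replicate 1, 2 or 3 or Ad-PDK4 replicate 1 (each -0.18), with TPM scaling (-0.14), with the length trend removed (-0.13) and without trend and robust moderation (adjusted p = 0.062), and 88.2% of its main transcript matches pseudogene transcripts.

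The peripheral stalk and membrane subunits were mostly uncalled. Atp5f1, subunit b of the stalk, was lower (log2 fold change -0.22, adjusted p = 0.028) but was lost without Ad-Con replicate 1 (-0.21), Ad-Con replicate 3 (-0.20) or Ad-PDK4 replicate 1 (-0.23), with TPM scaling (-0.17), without a filter (adjusted p = 0.057) and without trend and robust moderation (adjusted p = 0.061), and it shares 64.6% of its main transcript with other genes. Atp5h (-0.12), Atp5j (-0.12), Atp5j2 (-0.13), Atp5o (-0.07), Atp5mpl (-0.17) and the coupling factor Atp5s (-0.22) had values below 0 that missed the threshold. Atp5l, subunit g, was close to 0 (log2 fold change -0.01, 95% interval -0.15 to 0.14), and Atp5k, subunit e, had a wide interval (0.08, 95% interval -0.49 to 0.64). Atp5l and Atp5h share 72.2% and 71.1% of their main transcripts with other genes, so their values too may depend on how reads were divided. The summed FPKM of the complex V subunits was 1258 ± 41.7 (SD, n = 3) in Ad-Con and 1096 ± 4.47 (SD, n = 3) in Ad-PDK4, a ratio of 0.871.

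The order of levels between genes depended on the gene length used. The table divides by the union of all exons, which for 59 members equals that of the GENCODE annotation and is 1.42 times the main transcript in the median. Atp5l shows the extreme, with 6443 bases in the table and 544 in its main transcript, so its mean of 12.2 FPKM over 6 libraries becomes 144.2 on the same scale per kb of main transcript. In addition, 72.2% of that transcript matches transcripts of other genes, among them the pseudogene Gm10221, which averaged 67.9 FPKM. Counting may have divided reads between these genes, so the level of Atp5l is uncertain on either length. By FPKM the highest members were Cox6a1 (396.0), Cox8a (332.2), Cox4i1 (296.1) and Atp5b (275.0). Per kb of main transcript they were Atp5b (608.0), Cox4i1 (600.0), Cox6a1 (486.9) and Cox8a (329.2). The ratio of the FPKM of a gene between groups does not depend on this length. The pseudocount and the filter act on FPKM, so the log2 fold changes and testing of genes with low FPKM can depend on it.

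**Figure D5:**
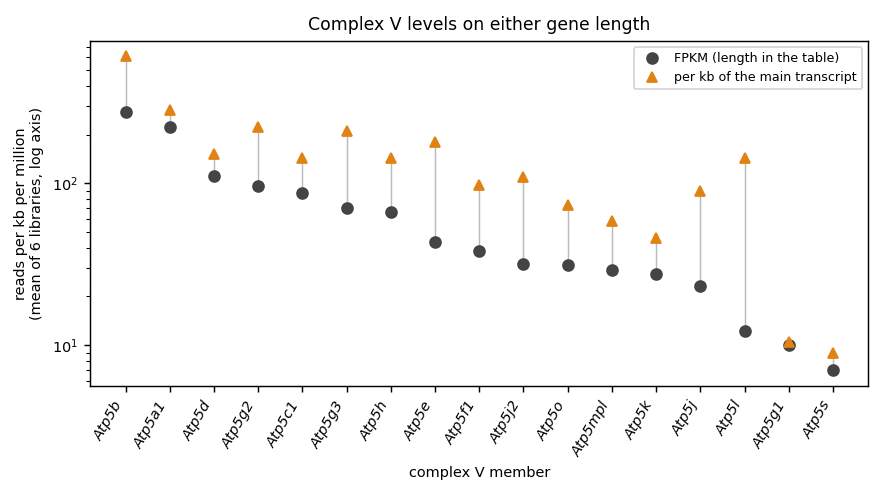
Mean level over 6 libraries of the 17 tested complex V members (log axis), as FPKM with the length in the table (circles) and per kb of the main transcript (triangles), both scaled to library size as FPKM is. Atp5l moves from 12.2 to 144.2 and Atp5b from 275.0 to 608.0, so the order of the genes differs between the scales.

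Gene length moved with the fold changes over the whole table. The median log2 fold change over all tested genes was -0.06 in the quartile of shortest genes (at most 2143 bases) and 0.04 in the quartile of longest genes, and 47 of the 56 tested members were shorter than the median gene. With the trend on length removed, 6 members were higher and 17 lower. Of the 62 members, 11 share at least 50% of their main transcript with transcripts of other genes at 98% identity, and without them 46 tested members gave 3 higher and 18 lower calls. The median log2 fold change was -0.13 both in these 46 and in the 10 tested members that share more.

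Genes outside the rule that complete the same machinery showed both directions. Ndufa4, first assigned to complex I and now counted as a complex IV subunit, had 67.0, 75.7 and 71.7 FPKM in Ad-Con and 43.6, 42.5 and 48.9 FPKM in Ad-PDK4 (log2 fold change -0.67, adjusted p = 2.2e-04). Cycs, cytochrome c itself, had 9.80, 10.5 and 10.5 FPKM in Ad-Con and 15.8, 13.9 and 15.8 FPKM in Ad-PDK4 (log2 fold change 0.56, adjusted p = 4.7e-04). The carrier between complexes III and IV was thus higher while all called nuclear subunits of both complexes were lower. Transcripts of other genes match 33.7% of the main transcript of Cycs. Among called subunits of both complexes, they match 45.1% for Cox5b, 42.0% for Cox5a, 38.4% for Uqcr11 and 20.1% for Cox4i1. How reads were divided between such genes was not tested.

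Among 17 tested further complex IV assembly genes including Ndufa4, Higd1a, a regulator of the oxidase, was higher, at 2.96, 3.19 and 3.19 FPKM against 5.71, 5.45 and 5.60 FPKM (log2 fold change 0.82, adjusted p = 8.4e-05). Transcripts of other genes match 43.5% of the main Higd1a transcript. Cmc1, which holds newly made subunit 1, was lower (-0.47, adjusted p = 0.0034), as was Ndufa4, and the other 14 were not called, among them Surf1 (0.01) and Sco1 (0.17). Sco2 and Pet117 are listed at 0. Of 6 complex III assembly factors only Uqcc1 was called (log2 fold change 0.25, adjusted p = 0.033), and the call was lost when any one library but Ad-Con replicate 1 was left out (0.20 to 0.28), without a filter (adjusted p = 0.062) and with quantile normalization (0.21).

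Of 6 complex V assembly and accessory genes, Atpif1, the inhibitor that blocks ATP hydrolysis by the synthase, was lower. Its values were 29.3, 26.1 and 34.0 FPKM in Ad-Con and 19.3, 16.2 and 16.8 FPKM in Ad-PDK4 (log2 fold change -0.77, adjusted p = 9.1e-04). The assembly factors Atpaf1 (0.14), Atpaf2 (0.04) and Tmem70 (-0.18) were not called. Of 7 genes that carry electrons or feed them to ubiquinone, Cycs was higher and 4 (57.1%) were lower, beside 20.8% of all tested genes. The lower genes were Gpd2 of the glycerol phosphate shuttle (-0.41), Sqor, which oxidises sulfide (-0.34), Etfdh (-0.32) and Etfa (-0.27). Etfdh and Etfa belong to electron transfer from fatty acid oxidation. The Etfdh call was lost without Ad-Con replicate 2 (-0.27), Ad-Con replicate 3 (-0.30) or Ad-PDK4 replicate 1 (-0.29).

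In the main fit, subunits encoded in mtDNA gave larger differences than Ndufa4 (-0.67) and the nuclear subunits among the 62 members, whose log2 fold changes lay between -0.58 and 0.52. For mt-Co1 this order was not stable. Over the alternative settings mt-Co1 ranged from -0.812 to -0.435, Ndufa4 from -0.729 to -0.605 and Cox6c from -0.641 to -0.518. Of 6 mtDNA-encoded genes of complexes III to V, 5 (83.3%) were lower, beside 20.8% of all tested genes. The median log2 fold change of these 6 was -1.41. Their levels were very uneven, with means over the 6 libraries of 5629 FPKM for mt-Co1 and 2466 FPKM for mt-Cytb. The means were only 51.4 FPKM for mt-Co2, 42.6 for mt-Atp6, 24.7 for mt-Co3 and 5.98 for mt-Atp8. mt-Atp8 rested on 18 to 65 reads per Ad-Con library and 5 to 8 per Ad-PDK4 library. The cause of the low levels was not tested, and mt-Co1, the highest, changed least. mt-Cytb, the membrane core of complex III, was at 3642, 3623 and 3813 FPKM in Ad-Con and at 1302, 1016 and 1401 FPKM in Ad-PDK4 (log2 fold change -1.59, adjusted p = 4.7e-05). mt-Co1, the catalytic subunit of complex IV, was at 7120, 6754 and 7099 FPKM in Ad-Con and at 4273, 3707 and 4817 FPKM in Ad-PDK4 (log2 fold change -0.72, adjusted p = 4.9e-04). Both fell in every Ad-PDK4 library, whereas mt-Atp6 of complex V had overlapping groups (log2 fold change -1.06, adjusted p = 0.086) and was called only without Ad-PDK4 replicate 2 (-1.46). mt-Atp8 (-2.25, adjusted p = 0.02) was lost without any one of 4 libraries, Ad-Con replicate 2 or Ad-PDK4 replicate 1, 2 or 3 (-2.40 to -2.10). The protein-coding genes of mtDNA held 6.13% to 6.53% of all FPKM in Ad-Con and 2.61% to 3.60% in Ad-PDK4. The difference in change between mtDNA-encoded and nuclear subunits was not tested.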

How the data were processed

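RNA-seq of 6 libraries, 3 per group, was deposited by the authors as FPKM per gene and library with the gene lengths used, in 1 table without pooling. The group came from the treatment label and the replicate number from the title. The submitters' processing notes name CASAVA 1.8, fastp, HISAT2 2.0.5, featureCounts 1.5.0-p3 and DESeq2 1.20.0, and a genome build, GRCm39, that differs from the coordinates in the table. Of the identifiers in the table, 54495 were in GENCODE M21 (GRCm38), 98.3% of them with the same coordinates, so positions are given on GRCm38. The labels name a SMARTER kit and the study's methods a NEBNext Ultra kit, with paired-end sequencing on an Illumina HiSeq.

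FPKM times gene length gave whole reads for 100% of non-zero values (tolerance 0.01), so that depth was known, and the implied library sizes were proportional to median-of-ratios size factors. Because the unit was not a count, log2(FPKM + 0.1) was fitted with limma 3.58.1 in R 4.3.3 over all 6 libraries, without covariates, with trend and robust moderation and Benjamini-Hochberg adjustment over genes averaging 0.5 FPKM or more. The script was tested on simulated data. Sums, shares and medians carry no test. Transcripts were matched to those of other genes with BLAST 2.17.0 (at least 98% identity over at least 100 bases), and reads of members that share sequence or overlap other genes may have been divided by counting. The alternatives were another pseudocount, filter, scaling, model or set of libraries. Depth limits genes with few reads.

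Genes were named by rule: the called members of each complex (at most 6 per direction), its highest and highest uncalled member, isoform families, members under the filter, and the largest called genes of the other pathway lists. The remaining members were added to account for each, and overlapping neighbours were chosen after values were seen. Members and lists were chosen with earlier results of these data known.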

Additional observations from a re-analysis of the deposited data

How the results depend on the processing

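Each result was recomputed under 16 alternatives. Of the 26 called members, 17 kept their call in every one that tested them, and Pdk4 stayed lower in all (-0.47 to -0.38). Among those 17, Cox10, Cox18, Cox20 and Sdhaf1 were tested in only 15, since they averaged less than 5 FPKM. Among members averaging 5 FPKM or more, 2 were called higher and 1 of only 4 tested complex IV assembly factors was, since fewer genes were tested. Leaving out 1 library gave 13 to 20 lower members, with 13 without Ad-Con replicate 3, 4 to 6 higher members, 5 to 8 lower complex IV subunits and 4 to 8 lower complex V members, the lowest counts of lower genes each without Ad-Con replicate 3 and the lowest count of higher members without Ad-PDK4 replicate 1. The other fits gave 15 (without trend and robust moderation) to 22 (limma-voom on recovered reads) lower members.

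The median log2 fold change of complex II was 0.007 with the filter of 5, -0.015 with TPM scaling, -0.099 with quantile normalization and 0.006 with the length trend removed, so its sign was not stable. That of complex III was -0.052, -0.133 and -0.041 under the last 3 settings and -0.115 to -0.083 with 1 library left out. That of complex IV was -0.223 with the filter of 5, -0.095 with the length trend removed and -0.171 to -0.093 with 1 library left out. Signs of uncalled members turned for Atp5l (0.035) and Sdhd (0.030) with TPM scaling and for Sdhd with the length trend removed (0.056). With 1 library left out, Atp5k ranged from -0.070 to 0.316, Atp5l from -0.045 to 0.039, Cox14 from -0.018 to 0.152, Cox19 from -0.027 to 0.121, Cox7a1 from -0.174 to 0.694 and Sdhd from -0.060 to 0.026. The cause was not tested.

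Replicate numbers did not pair the samples: the deviations of same-numbered libraries correlated at -0.046, -0.031 and -0.0013. With a replicate block, 5 members were higher and 18 lower, and 23 of the 26 called members stayed past the threshold, all but Cox7b, Cox15 and Cox7a2l.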
